A study of Mus musculus with 2 samples.

Results

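The Gimap genes encode the GTPases of the immunity-associated protein family, GTP-binding proteins found mainly in lymphocytes. The mouse genes lie together in 1 cluster, and Gimap1, Gimap3, Gimap4, Gimap5, Gimap6, Gimap7, Gimap8 and Gimap9 are the 8 members described here. Their rows were taken by gene name, but the family was chosen with earlier results of these data known. Each of the 8 was found as 1 row among the 31053 genes listed for both libraries. The cells were natural killer (NK) cells of the mouse brain, sorted by flow cytometry and read as single-cell libraries with the 10x Genomics 5′ chemistry, which counts unique molecular identifiers (UMIs) per gene and cell barcode. The 3XTg-AD library came from 8-month-old females of the 3XTg-AD line, a transgenic model of Alzheimer's disease whose alleles include mutant human APP and MAPT transgenes under a Thy1 promoter. The wildtype library came from 8-month-old C57BL/6 females. Neither group was treated. The sources used here do not give the number of mice, the gate of the sort or the strain background of the 3XTg-AD line. There was 1 library per genotype, so no difference has a replicate check, no test was made, and every interval given is a 95% interval that covers counting error only.

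GIMAP proteins are anchored to or associate with membranes of organelles such as lysosomes, mitochondria and the endoplasmic reticulum, and several are needed for lymphocytes to survive in the resting state. Loss of Gimap5 in mice depletes NK cells and T cells, and loss of Gimap1 depletes mature B and T cells. In mice, NK cells lose the TNF receptor family member Cd27 and gain the inhibitory lectin-like receptor Klrg1 as they mature, which makes the pair a common scale of NK maturation. ILC1 cells are tissue-resident relatives of NK cells.

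Deposited barcodes numbered 1695 for 3XTg-AD, with 5468455 UMIs, and 1709 for wildtype, with 5559995 UMIs, and 1 barcode sequence was common to both. After filters, 1663 3XTg-AD and 1649 wildtype barcodes were kept. A marker gate that used none of the Gimap genes called 1498 and 1467 of them NK, with median depths of 2782 and 2866 UMIs per barcode. It called 67 and 85 ILC1-like (at least 3 summed UMIs of Itga1, Cxcr6, Inpp4b, Gzmc and Tnfsf10), with median depths of 5512 and 5204 UMIs. The gate used Ncr1 and the Cd3 genes, so their shares are no check of it. Outside the gate, Gzma, which encodes a granzyme of cytotoxic granules, was detected in 98.0% of 3XTg-AD and 95.6% of wildtype NK barcodes, and S1pr5, a receptor gene of NK cell egress, in 68.2% and 59.5%.

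The cluster spans 124 kb of chromosome 6, from position 48647234 to 48770851 in the mm10 build, with 6 members on the plus strand and 2, Gimap3 and Gimap6, on the minus strand. Promoter windows (250 bases before to 50 after the start site, RefSeq, GRCm38.p6, the same assembly as mm10) were found for all 8 members. They are shown for the 4 members on which the comparisons turn. Gimap4 and Gimap7 had the lowest ratios between the libraries, and Gimap6 differed most with NK maturation. Gimap9 had the lowest ratio of ILC1-like over NK barcodes in both libraries on the CPM scale without thinning. Each reads 5′ to 3′ on the gene's own strand, and capitals mark matches to the RUNX, ETS or STAT motif.
Gimap4, plus strand, chr6:48684328-48684627: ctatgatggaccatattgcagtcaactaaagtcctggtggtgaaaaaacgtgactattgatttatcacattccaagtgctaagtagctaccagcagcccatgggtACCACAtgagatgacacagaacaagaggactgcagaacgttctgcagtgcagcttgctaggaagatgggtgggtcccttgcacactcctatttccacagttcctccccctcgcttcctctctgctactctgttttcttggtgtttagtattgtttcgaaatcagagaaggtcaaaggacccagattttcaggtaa
Gimap7, plus strand, chr6:48718371-48718670: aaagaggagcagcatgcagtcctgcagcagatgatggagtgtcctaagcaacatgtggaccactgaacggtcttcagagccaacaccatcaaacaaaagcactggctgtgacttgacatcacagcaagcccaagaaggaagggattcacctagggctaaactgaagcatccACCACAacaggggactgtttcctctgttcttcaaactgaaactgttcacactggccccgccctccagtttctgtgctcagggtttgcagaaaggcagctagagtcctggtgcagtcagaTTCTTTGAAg
Gimap6, minus strand, chr6:48708195-48708494: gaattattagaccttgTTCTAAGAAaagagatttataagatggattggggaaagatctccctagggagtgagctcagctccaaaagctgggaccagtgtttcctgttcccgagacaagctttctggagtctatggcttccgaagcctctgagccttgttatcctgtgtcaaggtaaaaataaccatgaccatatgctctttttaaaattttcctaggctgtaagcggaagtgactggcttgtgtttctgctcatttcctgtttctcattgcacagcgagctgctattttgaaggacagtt
Gimap9, plus strand, chr6:48675885-48676184: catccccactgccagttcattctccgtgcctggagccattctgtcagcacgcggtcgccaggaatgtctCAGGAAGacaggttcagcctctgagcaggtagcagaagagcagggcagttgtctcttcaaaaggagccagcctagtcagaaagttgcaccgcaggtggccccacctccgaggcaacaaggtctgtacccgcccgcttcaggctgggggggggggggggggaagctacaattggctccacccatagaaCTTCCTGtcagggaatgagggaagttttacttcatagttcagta

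Both strands were searched for 9 motifs of transcription factor families active in lymphocytes. The RUNX motif TGTGGT was found in the windows of 3 members, Gimap1, Gimap4 and Gimap7, and in 18.9% of the 27025 genes with a window. The ETS motif CNGGAAG was found in Gimap3, Gimap5 and Gimap9, and in 34.7% of genes. The STAT motif TTCNNNGAA was found in Gimap3, Gimap6, Gimap7 and Gimap8, and in 9.55% of genes. TCACACC of the T-box family matched in Gimap8 (4.60% of genes) and TGTTTAC of the FOXO family in Gimap3 (4.05%). No member window held ATCAAAG of the TCF family (4.29%), CCACACCC of the KLF family (4.09%), TGANTCA of AP-1 (8.97%) or the interferon-stimulated response element (3.99%), the T-box and KLF motifs sharing the letters CACACC. None of the matches in the 4 windows shown overlapped another, and a match is a description of the letters only.

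The members share sequence, which bears on how their reads were counted. The coding sequences of Gimap3 and Gimap5 were 90.7% identical over the 895 bases aligned, the next most alike pair with most of its length aligned was Gimap7 and Gimap9 with 68.8%, and Gimap8 was the longest at 688 codons against 291 to 328 in the others. Of all the 75-base words in the annotated transcripts, 83 were common to Gimap3 and Gimap5, which is 3.32% of those of Gimap3 and 1.97% of those of Gimap5. The annotated gene Gm28053 starts beside Gimap7, runs past Gimap1 into Gimap5 and overlaps exons of Gimap7, Gimap1 and Gimap5 on the same strand, and the first exon of all coding transcripts of Gimap1 (3 of 3) and Gimap7 (2 of 2) overlaps it. A read that lies wholly within a shared stretch cannot be assigned to 1 gene, so the levels of Gimap1, Gimap3, Gimap5 and Gimap7 are less certain than those of the other 4. Gm28053 itself had 13.6 CPM (UMIs per 1000000 UMIs of the barcodes summed) in 3XTg-AD and 15.7 CPM in wildtype NK barcodes.

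All 8 members were detected in the NK barcodes of both libraries, and their sum was 2319 CPM in 3XTg-AD and 2676 CPM in wildtype. At least 1 Gimap UMI was present in 98.9% of 3XTg-AD and 99.3% of wildtype NK barcodes. A UMI counts a molecule at its 5′ end and is not divided by gene length, so the order of members below is one of UMIs and not of length-corrected levels. Gimap3, which encodes a protein of the outer mitochondrial membrane, was the highest with 551 CPM (530 to 573) in 3XTg-AD and 628 CPM (606 to 652) in wildtype. Gimap1 came next with 463 CPM (444 to 484) in 3XTg-AD and 496 CPM (476 to 517) in wildtype. Both stood apart from every other member in both libraries.

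The middle of the order was held by 3 members. Gimap6, whose product binds the autophagy protein GABARAPL2, had 335 CPM (318 to 352) in 3XTg-AD and 412 CPM (393 to 431) in wildtype. Gimap5, the lysosomal member, had 296 CPM (280 to 312) in 3XTg-AD and 329 CPM (312 to 346) in wildtype. Gimap4, which has been linked to T cell death, had 285 CPM (270 to 301) in 3XTg-AD and 391 CPM (373 to 410) in wildtype. Gimap4 and Gimap5 did not differ beyond their intervals in 3XTg-AD, and Gimap4 and Gimap6 did not in wildtype, where Gimap4 lay above Gimap5.

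The lowest levels were those of Gimap9, Gimap8 and Gimap7. Gimap9 had 178 CPM (166 to 191) in 3XTg-AD and 177 CPM (165 to 190) in wildtype. Gimap8, the long member with repeated GTP-binding domains, had 131 CPM (121 to 142) in 3XTg-AD and 128 CPM (117 to 138) in wildtype. Gimap7, whose human counterpart stimulates the GTPase activity of GIMAP2, had 78.8 CPM (70.9 to 87.4) in 3XTg-AD and 116 CPM (106 to 126) in wildtype. Gimap7 was the lowest member in both libraries, though its interval met that of Gimap8 in wildtype.

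**Figure D1:**
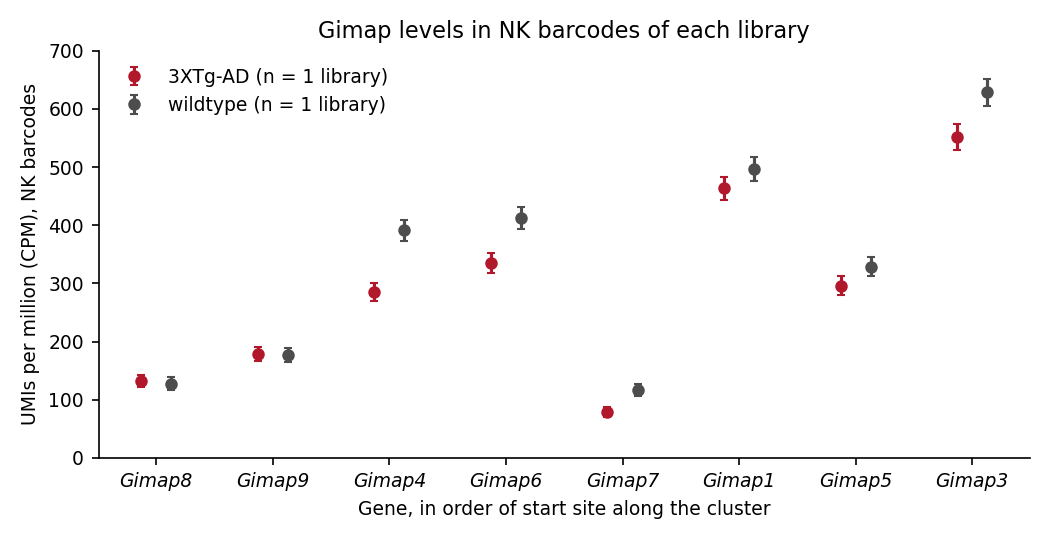
Level of each Gimap gene in NK barcodes (CPM, linear axis from 0) in the 3XTg-AD library (red, left of each pair) and the wildtype library (grey, right), with genes in order of start site; points are 1 library each and bars are 95% Poisson intervals for counting error. Gimap3 and Gimap1 are the highest and Gimap7 the lowest in both libraries, and the points of Gimap4, Gimap6 and Gimap7 sit apart between libraries while those of Gimap8 and Gimap9 overlap.

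After each barcode was thinned to 1400 UMIs, Gimap3 was detected in 53.5% of 1420 3XTg-AD and 56.8% of 1360 wildtype NK barcodes, against 76.4% and 78.7% before thinning. Gimap7 was detected in 10.3% (8.75 to 11.98) and 14.3% (12.4 to 16.2) after thinning, against 19.8% and 25.7% before. Microglia are not known for these genes, and the 31 microglia-like barcodes of 3XTg-AD served to look at Gimap UMIs in another cell type. Their NK gene Gzma was not spread evenly. It had 4 to 201 UMIs in 13 of them, with a median of 64 at a median depth of 5410 UMIs. In 3XTg-AD NK barcodes its median was 54 at a median depth of 2782 UMIs. The other 18 microglia-like barcodes had 0 Gzma UMIs. Split by this, which was chosen after the values were seen, the 13 barcodes with a Gzma UMI held 95 Gimap UMIs, or 1330 CPM (1076 to 1626), at a median depth of 5410 UMIs. The 18 without held 6 Gimap UMIs in 4 barcodes, or 127 CPM (46.7 to 277), at a median depth of 2351 UMIs, and none of Gimap3 or Gimap7. In wildtype the 4 microglia-like barcodes with a Gzma UMI held 21 Gimap UMIs and the 4 without held 0. The part of droplets shared with NK cells was not tested, and the barcodes without Gzma are too few to set a background share for single members.

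Between the libraries, the summed Gimap level in NK barcodes was lower in 3XTg-AD, 2319 CPM against 2676 CPM in wildtype, a ratio of 0.866 (0.844 to 0.889). Gimap7 and Gimap4 had the lowest ratios, Gimap6, Gimap3 and Gimap5 lay between, and Gimap8 and Gimap9, the first 2 genes of the cluster by position, had ratios near 1. No member reached a 1.5-fold difference in either direction, a size passed downward by 2.41% and upward by 3.58% of the 7188 genes with at least 100 UMIs. Of all these genes, 4.02% had a lower ratio than Gimap4 and 2.69% a lower ratio than Gimap7.

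Gimap7 had 360 UMIs in 3XTg-AD and 531 in wildtype NK barcodes, a ratio of CPM of 0.680 (0.593 to 0.779). Its UMIs lay in 296 of 1498 3XTg-AD and 377 of 1467 wildtype barcodes, with at most 4 and 6 in 1 barcode. Gimap4 had 1301 UMIs in 3XTg-AD and 1792 in wildtype, a ratio of 0.728 (0.677 to 0.782). Gimap6 had a ratio of 0.813 (0.760 to 0.871), Gimap3 of 0.878 (0.832 to 0.926), Gimap5 of 0.901 (0.836 to 0.970) and Gimap1 of 0.935 (0.881 to 0.992). Gimap9 had 813 UMIs in 3XTg-AD and 811 in wildtype, a ratio of 1.01 (0.911 to 1.11), and Gimap8 a ratio of 1.03 (0.918 to 1.16). The members' median log2 ratio was -0.17, beside 0.06 for all genes tested, and 6 of 8 members were below 1, beside 39.5% of all genes.

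The NK barcodes of the 2 libraries differed in other measures. The erythroid genes Hbb-bs, Hbb-bt, Hba-a1 and Hba-a2 had 0 UMIs in 3XTg-AD and 76 UMIs, 16.6 CPM, in wildtype. The 6 microglia genes stood at 6.57 CPM in 3XTg-AD and 1.31 CPM in wildtype, from 30 and 6 UMIs, and the neutrophil genes at 18 and 0 UMIs. The 5 genes of the ILC1-like gate stood at 26.7 CPM in 3XTg-AD and 37.1 CPM in wildtype, from 122 and 170 UMIs. The median share of ribosomal protein UMIs was 15.6% in 3XTg-AD and 17.5% in wildtype, and that of mitochondrial UMIs 1.19% and 1.42%. Without mitochondrial and ribosomal genes the ratio of the Gimap sum was 0.842, and the parts of the other measures were not tested. The T cell genes Cd3d, Cd3e and Cd3g were close, at 11.6 CPM in 3XTg-AD and 9.82 CPM in wildtype, and without barcodes that held any such UMI the ratio of Gimap7 was 0.681 and that of Gimap4 0.720. The summed level of 10 interferon-induced genes was 105 CPM in 3XTg-AD and 333 CPM in wildtype, and without interferon-high barcodes the ratios were 0.692 and 0.734. The share of Klrg1+ Cd27- barcodes among NK barcodes was 45.3% in 3XTg-AD and 46.3% in wildtype, and that of Klrg1- Cd27+ barcodes 6.28% and 8.32%. The strain background of the 3XTg-AD line and the number of mice were not given. With 1 library per genotype, the parts of genotype, strain background, mice and library preparation in the difference cannot be told apart.

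Within the 4 states set by Klrg1 and Cd27 (at least 1 UMI for positive), Gimap4 had ratios of 3XTg-AD over wildtype of 0.738 (0.666 to 0.818) in Klrg1+ Cd27- barcodes, 0.787 (0.488 to 1.27) in Klrg1+ Cd27+, 0.698 (0.622 to 0.783) in Klrg1- Cd27- and 0.831 (0.644 to 1.07) in Klrg1- Cd27+. Gimap7 had ratios of 0.618 (0.512 to 0.745), 0.688 (0.311 to 1.51), 0.755 (0.598 to 0.951) and 0.836 (0.491 to 1.40) in the same order of states. Both were below 1 in each of the 4 states, with intervals clear of 1 in the 2 states that held most barcodes. In Klrg1+ Cd27- barcodes Gimap7 had 80.2 CPM in 3XTg-AD and 130 CPM in wildtype, a ratio of 0.618, the lowest of any member and state. In ILC1-like barcodes the sum was 1984 CPM in 3XTg-AD and 2077 CPM in wildtype, a ratio of 0.955 (0.867 to 1.05). Gimap4 had a ratio of 1.03 (0.803 to 1.32) there, and Gimap7, with 27 UMIs in 3XTg-AD and 52 in wildtype, a ratio of 0.655 (0.396 to 1.06). The ILC1-like barcodes of the libraries were not alike. The genes of their gate stood at 1161 CPM in 3XTg-AD and 2219 CPM in wildtype, and Gzma at 1530 CPM and 4254 CPM. The interferon-induced genes stood at 174 CPM and 476 CPM, and Ncr1 was detected in 98.5% and 88.2%. The part of these measures was not tested.

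Of the 26 other genes listed in the files within 250 kb of the cluster, 4 had at least 100 UMIs over the NK barcodes of both libraries. Lrrc61 had a ratio of 1.28 (0.951 to 1.72) and Gm28053 of 0.863 (0.605 to 1.23), neither clear of 1. Tmem176b had 11.8 CPM in 3XTg-AD and 23.6 CPM in wildtype, a ratio of 0.501 (0.355 to 0.701). Tmem176a, the neighbouring gene of the same membrane protein family, had 7.44 CPM in 3XTg-AD and 15.1 CPM in wildtype, a ratio of 0.494 (0.318 to 0.755). This pair on 1 side of the cluster had lower ratios than any Gimap gene, on totals of 54 and 34 UMIs in 3XTg-AD. Their intervals overlapped that of Gimap7, while Lrrc61 on the other side had a value above 1. In ILC1-like barcodes Tmem176b had more, 168 CPM in 3XTg-AD and 137 CPM in wildtype. The part of ILC1-like transcripts within NK barcodes in the ratios of the pair was not tested.

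**Figure D2:**
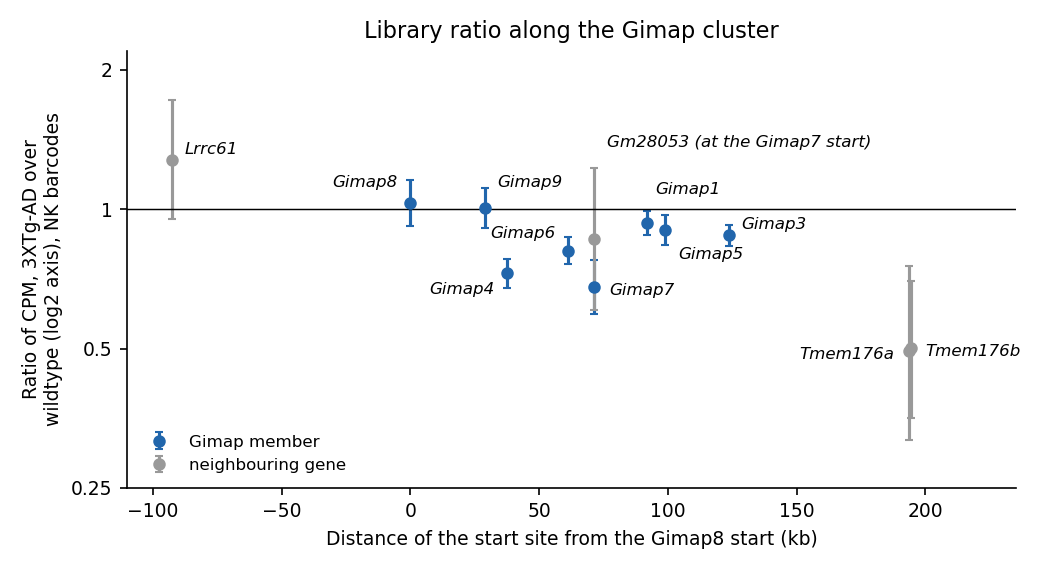
Ratio of CPM in NK barcodes, 3XTg-AD over wildtype (log2 axis), against the distance of each start site from that of Gimap8 (kb), for the 8 Gimap genes (blue) and the 4 neighbouring genes with enough UMIs (grey); points rest on 1 library per genotype and bars are exact 95% intervals for counting error. Gimap8 and Gimap9 sit at 1, Gimap4 and Gimap7 near 0.7, and Tmem176a and Tmem176b near 0.5.

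Across the NK maturation states, Gimap6 was the member that differed most, with less in Klrg1+ Cd27- than in Klrg1- Cd27+ barcodes of both libraries. In 3XTg-AD it had 290 CPM (268 to 313) in 679 Klrg1+ Cd27- barcodes and 461 CPM (388 to 544) in 94 Klrg1- Cd27+ barcodes. In wildtype it had 360 CPM (336 to 385) in 679 Klrg1+ Cd27- barcodes and 558 CPM (488 to 636) in 122 Klrg1- Cd27+ barcodes. The ratios were 0.629 (0.524 to 0.760) and 0.644 (0.555 to 0.750), and the intervals of the 2 states did not meet in either library. Gimap6 was the 1 member of 8 past 1.5-fold in each library, a size passed downward by 4.74% of 3630 genes in 3XTg-AD and 4.4% of 3660 in wildtype, and upward by 9.67% and 8.22%.

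Barcodes with no UMI of Klrg1 or Cd27 lay between, with 365 CPM (338 to 394) of Gimap6 in 3XTg-AD and 450.5 CPM (419 to 483) in wildtype. Klrg1+ Cd27- barcodes had ratios to these of 0.794 (0.712 to 0.885) in 3XTg-AD and 0.798 (0.723 to 0.882) in wildtype. The few barcodes positive for both genes had 394 CPM (303 to 503) and 383 CPM (284 to 507). Cd27 had only 151 UMIs in the 1498 3XTg-AD and 180 in the 1467 wildtype NK barcodes. A barcode without a UMI therefore need not lack the transcript, and the negative states may hold a mixture. Barcodes with no UMI of either gene had median depths of 2499 and 2553 UMIs, against 3002 and 3099 in Klrg1+ Cd27- barcodes. After thinning, 34.4% of Klrg1+ Cd27- and 45.1% of Klrg1- Cd27+ barcodes held a Gimap6 UMI in 3XTg-AD, and 38.1% and 52.9% in wildtype, against 58.6% and 68.1%, and 63.3% and 79.5%, before thinning. Over the 12 other settings tried, the ratio of Gimap6 ranged from 0.436 to 0.665 in 3XTg-AD and from 0.594 to 0.665 in wildtype. With at least 2 UMIs required for a positive state it was 0.436 in 3XTg-AD and 0.661 in wildtype.

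The other 7 members differed less between these states. Gimap5 had 289 CPM in Klrg1+ Cd27- and 396 CPM in Klrg1- Cd27+ barcodes of 3XTg-AD, a ratio of 0.731 (0.601 to 0.894), and 313 CPM and 372 CPM in wildtype, a ratio of 0.840 (0.704 to 1.01). Gimap8 had ratios of 0.794 (0.579 to 1.11) and 0.810 (0.614 to 1.08), and Gimap4 of 0.823 (0.668 to 1.02) and 0.927 (0.784 to 1.10), in 3XTg-AD and wildtype. Gimap3 had ratios of 0.936 (0.799 to 1.10) and 1.001 (0.874 to 1.15), Gimap1 of 1.03 (0.859 to 1.23) and 1.10 (0.943 to 1.29), and Gimap9 of 1.03 (0.760 to 1.41) and 1.13 (0.865 to 1.49). Gimap7 had ratios of 0.943 (0.624 to 1.48) and 1.28 (0.918 to 1.81). Of these 7, only Gimap5 in 3XTg-AD had an interval clear of 1. Some of these ratios moved with the setting. With at least 2 UMIs for a positive state, which left 14 Klrg1- Cd27+ barcodes in 3XTg-AD, Gimap3 had 1.48 (0.959 to 2.40) and Gimap7 0.625 (0.307 to 1.48). In wildtype barcodes thinned to 1400 UMIs, Gimap9 had 1.72 (1.07 to 2.91).

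The summed family had 2226 CPM in Klrg1+ Cd27- and 2620 CPM in Klrg1- Cd27+ barcodes of 3XTg-AD, a ratio of 0.850 (0.788 to 0.916). In wildtype it had 2612 CPM and 2833 CPM, a ratio of 0.922 (0.865 to 0.983). The members' median log2 ratio was -0.19 in 3XTg-AD and -0.05 in wildtype, beside 0.04 for all genes in both. Other measures moved with the states. The 5 B cell genes stood at 25.3 CPM in Klrg1+ Cd27- and 118 CPM in Klrg1- Cd27+ barcodes of 3XTg-AD, and 21.8 CPM and 84.4 CPM in wildtype, and the 5 ILC1 genes at 19.2 CPM and 72.0 CPM, and 20.1 CPM and 62.0 CPM. Their part in the ratios was not tested. The median share of ribosomal protein UMIs was 14.8% in Klrg1+ Cd27- and 19.6% in Klrg1- Cd27+ barcodes of 3XTg-AD, and 16.6% and 21.6% in wildtype, and without mitochondrial and ribosomal genes the ratio of Gimap6 was 0.587 in 3XTg-AD and 0.594 in wildtype. The summed level of 5 genes of dividing cells was 187 CPM and 19.6 CPM in 3XTg-AD, and 126 CPM and 17.4 CPM in wildtype, and without dividing barcodes the ratio of Gimap6 was 0.622 and 0.645. The interferon-induced genes stood at 92.4 CPM and 137 CPM in 3XTg-AD, and 149.9 CPM and 494 CPM in wildtype, and without interferon-high barcodes the ratio was 0.622 and 0.642.

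**Figure D3:**
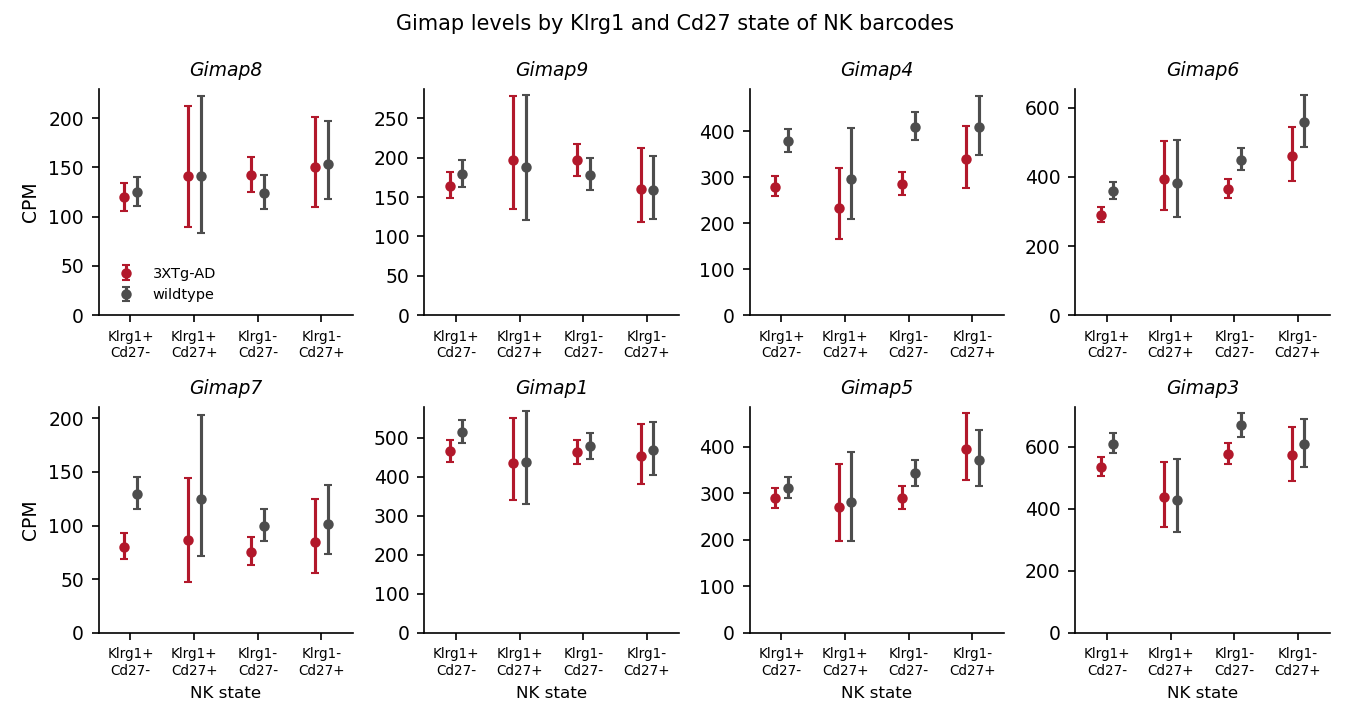
Level of each Gimap gene (CPM, linear axes from 0) in NK barcodes split by Klrg1 and Cd27 UMIs, in the 3XTg-AD library (red, left of each pair) and the wildtype library (grey, right); points are 1 library each and bars are 95% Poisson intervals for counting error. Gimap6 is lowest in Klrg1+ Cd27- barcodes, at 290 CPM in 3XTg-AD and 360 CPM in wildtype, and highest in Klrg1- Cd27+ barcodes, at 461 CPM and 558 CPM.

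In ILC1-like barcodes the summed Gimap level was below that of NK barcodes on the CPM scale. On that scale, without thinning, Gimap9 was the member with the lowest ratio in both libraries. The sum was 1984 CPM in ILC1-like and 2319 CPM in NK barcodes of 3XTg-AD, a ratio of 0.855 (0.793 to 0.922). In wildtype it was 2077 CPM in ILC1-like and 2676 CPM in NK barcodes, a ratio of 0.776 (0.727 to 0.828). Most genes had a ratio below 1 in this comparison, with a median log2 ratio over all genes of -0.29 in 3XTg-AD and -0.17 in wildtype, beside -0.26 and -0.29 for the members. The median share of ribosomal protein UMIs was 30.9% in ILC1-like and 15.6% in NK barcodes of 3XTg-AD, and 29.3% and 17.5% in wildtype. Scaling by trimmed mean of M-values, which shifted log2 ratios by 0.27 and 0.16, gave 1.03 for the sum in 3XTg-AD, above 1, and 0.865 in wildtype. The direction of the summed difference in 3XTg-AD thus depends on the scaling.

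Gimap9 had 109 CPM (78.6 to 149) in ILC1-like and 178 CPM in NK barcodes of 3XTg-AD, a ratio of 0.615 (0.438 to 0.842). In wildtype it had 76.1 CPM (53.3 to 105) in ILC1-like and 177 CPM in NK barcodes, a ratio of 0.430 (0.299 to 0.600). The ILC1-like values rest on 41 and 36 UMIs. The ratio was below 1 under all 13 other settings tried in each library, and when barcodes were thinned to 1400 UMIs it was 0.917 (0.529 to 1.49) in 3XTg-AD and 0.723 (0.409 to 1.19) in wildtype, with intervals that held 1. Before thinning, the share of all genes with a lower ratio than Gimap9 was 23.9% in 3XTg-AD and 6.13% in wildtype. After thinning, 23.9% of ILC1-like and 23.3% of NK barcodes held a Gimap9 UMI in 3XTg-AD, and 17.1% and 23.5% in wildtype. A Gimap1 UMI was held by 34.3% and 47.5% in 3XTg-AD, and a Gimap5 UMI by 19.5% and 36.8% in wildtype. The rank of Gimap9 as the lowest member thus did not hold in these shares.

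Gimap9 was the 1 member past 1.5-fold in 3XTg-AD, where 30.4% of 5580 genes passed that size downward and 7.99% upward. In wildtype 2 members passed it, Gimap9 and Gimap5, where 21.8% of 5512 genes did so downward and 7.55% upward. These shares are near or below the background. Gimap5 had 224 CPM in ILC1-like and 296 CPM in NK barcodes of 3XTg-AD, a ratio of 0.758 (0.600 to 0.945), and 214 CPM and 329 CPM in wildtype, a ratio of 0.650 (0.526 to 0.796). Gimap1 had ratios of 0.755 (0.628 to 0.901) in 3XTg-AD and 0.717 (0.609 to 0.839) in wildtype. These 3 were the members with intervals below 1 in both libraries on the CPM scale. Under trimmed mean scaling this held in wildtype only, since in 3XTg-AD Gimap9 had 0.743 (0.529 to 1.02), Gimap5 0.916 (0.726 to 1.14) and Gimap1 0.912 (0.759 to 1.09). Of all genes in 3XTg-AD, 41.8% had a lower ratio than Gimap1 and 42.3% a lower ratio than Gimap5.

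Gimap4 had 320 CPM in ILC1-like and 285 CPM in NK barcodes of 3XTg-AD, a ratio of 1.12 (0.925 to 1.36), and 311 CPM and 391 CPM in wildtype, a ratio of 0.795 (0.667 to 0.941). Its values in ILC1-like barcodes were close in both libraries, and those in NK barcodes were apart. Gimap3 had ratios of 0.915 (0.785 to 1.06) and 0.862 (0.755 to 0.980), Gimap6 of 0.917 (0.752 to 1.11) and 0.878 (0.747 to 1.03), Gimap7 of 0.915 (0.594 to 1.35) and 0.949 (0.699 to 1.26), and Gimap8 of 0.732 (0.508 to 1.02) and 0.846 (0.623 to 1.13), in 3XTg-AD and wildtype. Under trimmed mean scaling in 3XTg-AD, Gimap3, Gimap6 and Gimap7 each had a ratio of 1.11, so no direction is given for them. ILC1-like barcodes with a Cd27 UMI had a summed level of 2042 CPM (12 barcodes) and those without 1971 CPM (55 barcodes) in 3XTg-AD, and 2468 CPM (16 barcodes) and 1998 CPM (69 barcodes) in wildtype. Klrg1 had 2.67 CPM, from 1 UMI, in the ILC1-like barcodes of 3XTg-AD, so these were not split by it. Some ILC1-like barcodes of wildtype did hold a Klrg1 UMI, and the count of members past 1.5-fold without them is given with the other settings below.

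**Figure D4:**
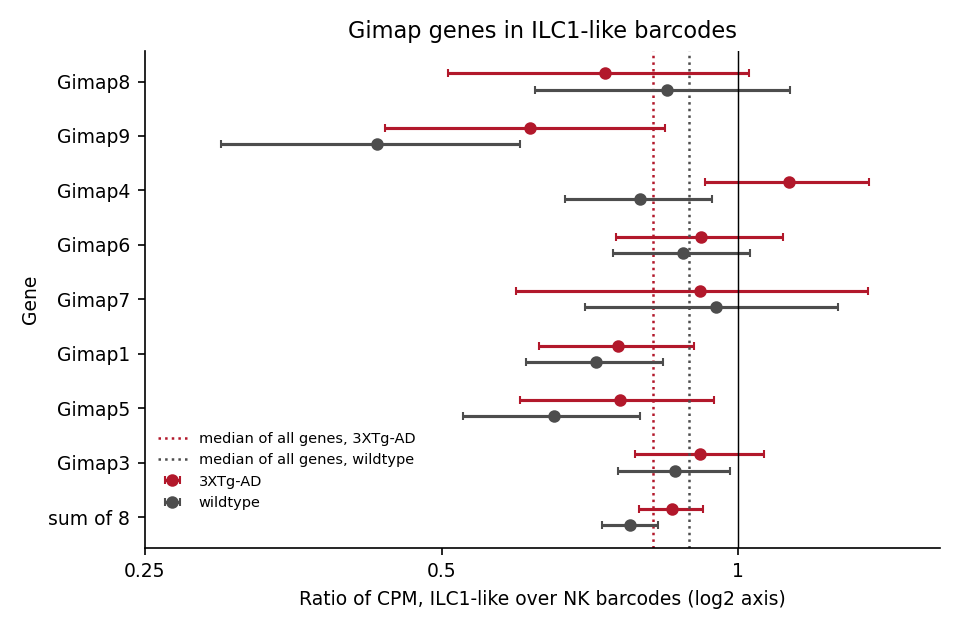
Ratio of CPM in ILC1-like over NK barcodes (log2 axis) for each Gimap gene and their sum, in the 3XTg-AD library (red, upper of each pair) and the wildtype library (grey, lower); points rest on 1 library each, bars are exact 95% intervals for counting error, and dotted lines mark the median ratio of all genes tested. On these unthinned counts Gimap9 lies lowest, at 0.615 in 3XTg-AD and 0.430 in wildtype, and most other members lie near the dotted lines.

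The ILC1-like barcodes were uneven in the Gimap genes when split by the neighbouring genes Tmem176a and Tmem176b, a split chosen after the values were seen. In 3XTg-AD the 18 barcodes with a Tmem176 UMI had 2881 CPM of summed Gimap and the 49 without had 1707 CPM, a ratio of 1.69 (1.44 to 1.97). In wildtype the 21 barcodes with had 2711 CPM and the 64 without had 1894 CPM, a ratio of 1.43 (1.24 to 1.64). Gimap3 had 919 CPM and 377 CPM in 3XTg-AD, a ratio of 2.44 (1.80 to 3.28), and 831 CPM and 458 CPM in wildtype, a ratio of 1.82 (1.39 to 2.36). Gimap6 had ratios of 1.73 (1.15 to 2.58) and 1.56 (1.10 to 2.17), while Gimap1 had ratios of 1.05 (0.682 to 1.58) and 0.979 (0.660 to 1.42). Gimap9 was below 1 in both, with 0.914 (0.384 to 1.96) and 0.836 (0.309 to 1.95) from 9 and 7 UMIs in the barcodes with. Gimap4 had ratios of 1.62 (1.08 to 2.40) and 1.39 (0.945 to 2.0003), Gimap5 of 1.22 (0.723 to 2.01) and 1.76 (1.13 to 2.70), and Gimap8 of 1.08 (0.448 to 2.37) and 1.73 (0.908 to 3.19). Gimap7 had 20 UMIs in 8 of the 18 barcodes against 7 UMIs in 6 of the 49 in 3XTg-AD, and 9 UMIs in 6 of the 21 against 43 UMIs in 25 of the 64 in wildtype, so its direction was not the same in both libraries. The split barcodes also differed in the interferon-induced genes, with 454 CPM against 87.3 CPM in 3XTg-AD and 1709.5 CPM against 119.9 CPM in wildtype. Gzma stood at 90.7 CPM against 1973 CPM, and 1709.5 CPM against 4988 CPM. The genes of dividing cells stood at 284 CPM against 10.5 CPM, and 0 CPM against 76.3 CPM. Median depths were 4238.5 against 5735 UMIs, and 4797 against 5355 UMIs. The parts of these measures in the difference were not tested. The median log2 ratio over all genes was -0.05 in 3XTg-AD and -0.02 in wildtype, beside 0.50 and 0.55 for the members. Tmem176b itself had 168 CPM in ILC1-like and 11.8 CPM in NK barcodes of 3XTg-AD, and 137 CPM and 23.6 CPM in wildtype.

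The barcodes with at least 3 summed UMIs of Cd3d, Cd3e and Cd3g numbered 32 in 3XTg-AD and 30 in wildtype. Ncr1 was detected in 93.8% and 63.3% of them and Cd3e in 40.6% and 53.3%, so they are named here by the rule that chose them and not as T cells. Their summed Gimap level was 2694 CPM in 3XTg-AD, a ratio to NK barcodes of 1.16 (1.05 to 1.28), and 2391 CPM in wildtype, a ratio of 0.893 (0.794 to 1.002). Gimap7 had 204 CPM from 30 UMIs in 3XTg-AD, a ratio of 2.58 (1.72 to 3.75) to NK barcodes, and 159 CPM from 20 UMIs in wildtype, a ratio of 1.37 (0.833 to 2.14). Gimap6 had ratios of 1.54 (1.21 to 1.94) and 0.890 (0.649 to 1.19), and Gimap1 of 0.747 (0.554 to 0.986) and 0.788 (0.581 to 1.04).

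The spread from barcode to barcode was described over thinned counts. Over NK barcodes thinned to 1400 UMIs, the summed Gimap count ran from 0 to 11 in 3XTg-AD, with a median of 3, and from 0 to 15 in wildtype, with a median of 4. No Gimap UMI was left in 4.23% of 3XTg-AD and 2.72% of wildtype barcodes, no barcode held all 8 members, and the median number of members detected was 3 in both. The ratio of variance to mean of single members lay between 1.03 and 1.14 in 3XTg-AD and between 1.01 and 1.198 in wildtype, where pure counting gives 1, and that of the sum was 1.13 and 1.24. All 8 members lay above the median of all detected genes, which was 1.01 in both. At means of 0.111 to 0.933 UMIs per thinned barcode this ratio lies near 1 for most genes, so low variation cannot be read from it. Among the 28 pairs of members, the median Pearson r over barcodes was 0.007 in 3XTg-AD and 0.018 in wildtype, with ranges of -0.053 to 0.073 and -0.032 to 0.079. The 95th percentile of r over all pairs of detected genes was 0.047 and 0.050. These correlations are across barcodes of 1 library, which share library and depth, and at such sparse counts they are no finding of shared control, nor do they show that the members vary independently.

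The pair with the highest r in wildtype was Gimap3 and Gimap5 with 0.079, against 0.028 in 3XTg-AD. These 2 members share 75-base words, and the part of the shared words in the r was not tested. In 3XTg-AD the pair with the highest r was Gimap8 and Gimap9 with 0.073, against 0.032 in wildtype. Outside the family, the genes whose thinned counts were most like the summed Gimap counts, ranked by the lower r of the 2 libraries among 3510 genes, were Il18r1, Ly6e, Plekha2, Stk17b, 2810474O19Rik, Ubald2, Klrc1 and Txnip. Their r ran from 0.056 to 0.102, which is weak. The lowest r were those of ribosomal protein and translation genes such as Rpl41, with -0.101 in 3XTg-AD and -0.109 in wildtype. The summed thinned count had an r of -0.137 and -0.164 with the depth of the barcode before thinning.

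The family was set beside 5 lists of other genes. Of all genes with at least 100 UMIs, 2.41% passed 1.5-fold downward and 3.58% upward between the libraries. Between the states the downward and upward shares were 4.74% and 9.67% in 3XTg-AD, and 4.4% and 8.22% in wildtype. For ILC1-like over NK barcodes they were 30.4% and 7.99% in 3XTg-AD, and 21.8% and 7.55% in wildtype. Of 14 genes of proteins that bind or act with GIMAP proteins and of their families, all 14 had enough UMIs in the library comparison and 0 passed 1.5-fold in either direction. Bcl2, which encodes the survival factor of that family, had 263 CPM in 3XTg-AD and 376 CPM in wildtype NK barcodes, a ratio of 0.700 (0.649 to 0.754), close to that of Gimap4. Mcl1 had a ratio of 0.794 (0.697 to 0.904), Bcl2a1b of 1.28 (1.04 to 1.58) and Bcl2l1 of 1.19 (0.962 to 1.47). In the maturation comparison 1 of 13 was lower in 3XTg-AD, Bcl2l11 with 0.538 (0.348 to 0.862) and 0 were higher, and 0 of 11 passed the size in either direction in wildtype. In ILC1-like barcodes Bcl2 had ratios to NK barcodes of 2.03 (1.74 to 2.36) in 3XTg-AD and 1.38 (1.21 to 1.58) in wildtype. There 1 of 14 was higher and 3 were lower in 3XTg-AD, and 1 of 14, Bcl2l11 with 1.61 (1.08 to 2.34), was higher and 0 lower in wildtype.

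Of 16 measured genes of other immune GTPases and their regulators, 1 was past 1.5-fold between the libraries, the interferon-induced GTPase gene Igtp with 26.5 CPM in 3XTg-AD and 46.3 CPM in wildtype, a ratio of 0.572 (0.454 to 0.719). In the maturation comparison Rap1b, a small GTPase of cell adhesion, had ratios of 1.86 (1.61 to 2.17) in 3XTg-AD and 2.21 (1.94 to 2.53) in wildtype, and was the 1 gene of 10 past 1.5-fold upward in each library. The 1 gene past it downward was Dock8, a regulator of Cdc42, with 0.597 (0.421 to 0.863) in 3XTg-AD, and the guanylate-binding protein gene Gbp7 with 0.620 (0.438 to 0.896) in wildtype. In ILC1-like barcodes Rap1b had ratios of 0.206 (0.164 to 0.257) and 0.231 (0.191 to 0.277), lower than any Gimap gene. Of this list 3 of 14 were lower and 2 higher there in 3XTg-AD, beside 30.4% and 7.99% of all genes. The higher ones were Dock8 with 1.70 (1.26 to 2.25) and Gbp8 with 1.56 (0.973 to 2.39). In wildtype 6 of 15 were lower and 4 higher, beside 21.8% and 7.55% of all genes. The higher ones were Gbp9 with 2.24 (1.32 to 3.62), Gbp8, Dock8 and Rhoh. Of the 19 measured genes of the quiescence and naive-state list, 2 were higher and 3 lower in 3XTg-AD NK barcodes, beside 3.58% and 2.41% of all genes. The higher ones were Dusp1 with 2.43 (1.82 to 3.26) and Pik3ip1 with 1.64 (1.16 to 2.34). Among the lower ones was the interleukin-7 receptor gene Il7r with 0.411 (0.322 to 0.521). In ILC1-like barcodes 12 of 18 genes of this list were lower in 3XTg-AD and 11 of 16 in wildtype, beside 30.4% and 21.8% of all genes. The count of higher genes was 3 in 3XTg-AD, Il7r with 4.51 (3.01 to 6.64), Tcf7, a transcription factor gene of early lymphoid cells, with 3.28 (2.15 to 4.88) and Pik3ip1 with 1.76 (0.903 to 3.17), and 0 in wildtype. Among the lower genes was Klf2, a transcription factor of lymphocyte quiescence and migration, with 0.00477 (0.000578 to 0.0172), from 2 UMIs, in 3XTg-AD and 0.0450 (0.0288 to 0.0670) in wildtype. Between the states, 2 of 13 were higher and 2 lower in 3XTg-AD, beside 9.67% and 4.74% of all genes. In wildtype 1 of 13 was higher and 4 were lower, beside 8.22% and 4.4% of all genes.

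Of 13 measured immature NK genes, 4 were lower in 3XTg-AD NK barcodes, Il7r, Ccr2 with 0.413 (0.352 to 0.484), Ctla2a with 0.490 (0.436 to 0.550) and Ly6e with 0.596 (0.560 to 0.633), and 0 were higher. Of 15 terminal NK genes, 2 were lower, Gzmb with 0.525 (0.510 to 0.540) and S100a6 with 0.656 (0.632 to 0.682), and 0 were higher. Over all genes 2.41% passed this size downward and 3.58% upward. The median log2 ratio of the immature list was -0.34 and that of the terminal list -0.01, beside -0.17 for the Gimap genes. The immature and terminal lists hold Cd27 and Klrg1, which set the states, so their values between states are not given as results.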

How the data were processed

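UMI counts per gene and barcode were deposited by the authors as 1 filtered matrix per library, made with Cell Ranger 3.1.0 and STAR on mm10, per the submitters' processing notes, while the file headers name software version 3.0.2. The deposited counts are not normalized. The sources used here do not give the annotation release. The members and gene lists were chosen with earlier results of these data known.

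Barcodes with under 300 genes (10 in 3XTg-AD, 45 in wildtype), over 10% mitochondrial UMIs (0 and 2) or a Scrublet doublet call (22 and 13) were left out. NK barcodes had at least 3 summed UMIs of Ncr1, Klrb1c, Klre1, Klrd1 and Klrk1, and under 3 of the T, B, microglia, endothelial and ILC1-like genes. Counts were summed per class and library and divided by all UMIs of those barcodes. Intervals are Poisson for levels, exact conditional binomial for ratios and Clopper-Pearson for shares, at 95%. Reads of 1 molecule are merged by UMI, so intervals cover counting of molecules only. With 1 library per genotype, a 1.5-fold difference stands in for a call, counted over genes with at least 100 UMIs in both groups summed. Shares and correlations used barcodes thinned to 1400 UMIs, which left out 78 3XTg-AD and 107 wildtype NK barcodes.

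Text names all 8 members, neighbours within 250 kb with at least 100 UMIs, the 8 genes most alike and, per list, up to 4 genes with the largest ratio. Alternatives covered scaling, depth, filters, gate, states and the gene minimum. Sequences are from RefSeq and exons from GENCODE M21. The calculations were tested on simulated data. Python 3.11.15, numpy 2.4.6, scipy 1.17.1, scanpy 1.11.5, igraph 0.11.9 and, for trimmed mean scaling, edgeR 4.0.16 in R 4.3.3 were used.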

Additional observations from a re-analysis of the deposited data

How the results depend on the processing

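Of 520 member ratios recomputed under other settings, 492 stayed within the counting interval, 28 moved beyond it and 0 of the differences called at 1.5-fold turned round. Most ratios were not called at 1.5-fold and could not count as turned round, and some of them crossed 1. For ILC1-like over NK barcodes in 3XTg-AD, the ratio of Gimap3 was below 1 in 6 and above 1 in 7 other settings. The summed 3XTg-AD over wildtype ratio was below 1 in all 15 alternatives, with 0.842 without mitochondrial and ribosomal genes, 0.833 under trimmed mean (TMM) scaling, 0.962 within Klrg1+ Cd27+ and 0.925 within Klrg1- Cd27+ barcodes. The number of members past 1.5-fold was 1, Gimap7, under the first 2 of these and within Klrg1+ Cd27- barcodes. For Klrg1+ Cd27- over Klrg1- Cd27+ barcodes, the sum was 0.917 in 3XTg-AD and 0.862 in wildtype with states from thinned barcodes, and 0.850 in wildtype without mitochondrial and ribosomal genes. The count past 1.5-fold was 2 in 3XTg-AD with at least 2 UMIs for a positive state, and 2 in wildtype after thinning. The share of all genes past 1.5-fold under each of these settings is not given here. The counts of members therefore have no background beside them and are not read as results.

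For ILC1-like over NK barcodes in 3XTg-AD, the sum was 1.04 without mitochondrial and ribosomal genes, 1.03 under TMM, 0.936 at a limit of 5 UMIs and 0.960 against NK barcodes of like depth, and the count was 0 under the first 2, the last and the cluster gate. In wildtype the sum was 0.891 without mitochondrial and ribosomal genes, 0.865 under TMM and 0.853 with each barcode weighted equally, and the count was 1 under these 3, the cluster gate, NK barcodes of like depth and ILC1-like barcodes without a Klrg1 UMI. These counts too have no background share beside them, and the causes were not tested. The limits on depth and the Klrg1 limit were chosen after seeing the data. No paired analysis was possible because each genotype had 1 library. Depth limits Gimap7, Gimap8 and Gimap9 most, with 27 to 52 UMIs each in the ILC1-like barcodes of a library.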
